A study of Mus musculus with 6 samples.

Results

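The muscle microRNAs miR-1a, miR-133a, miR-133b and miR-206 were followed in the small RNA of 6 mouse hearts. MicroRNAs (miRNAs) are short RNAs cut from the 5p or the 3p arm of a hairpin, which lower the output of messenger RNAs that pair with them. The members were taken by hairpin name: Mir1a-1, Mir1a-2, Mir133a-1, Mir133a-2, Mir133b and Mir206, each with every arm that had an entry. They amount to 10 of the 1102 entries in the deposited count files and to 6 of 975 mature names, of which 5 averaged at least 10 reads. Of the 10 entries, 8 are listed under the names of 5 of these hairpins. The other 2 are listed as antisense to Mir1b, at the position and on the strand where the annotation places Mir1a-2, and were used as the arms of Mir1a-2. No entry was found for the 5p arms of Mir133b and Mir206, so these hairpins are represented by their 3p arms only.

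All 6 libraries form a single group, from male mice of the strain C57BL/6J, wild type, 18 weeks old and with no treatment named. C57BL/6J is an inbred laboratory strain. The labels name whole heart as the tissue but describe freezing the tips of the ventricles, so the sampled region is uncertain. Each library held between 3966169 and 6007322 counts and is called heart 1 to heart 6 after its number in the labels, which do not state that each number is a separate animal. The p-values therefore measure only the spread between these samples, which may be partly technical. Values in CPM are reads per 1000000 counts of the library, and a count of 0 (limit of 3 counts) allows up to 0.499 to 0.756 CPM in a single library. The reads carry no molecular identifiers, so intervals and limits cover counting error only.

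The 6 hairpins form 3 pairs, each made of a member of the miR-1 family (miR-1a or miR-206) and a member of the miR-133 family, transcribed together. In striated muscle these transcripts are driven by muscle transcription factors such as MyoD, MEF2 and SRF. The miR-1 family is known for promoting muscle differentiation, and miR-133a for restraining growth and the smooth muscle programme in heart. The pairs with miR-1a and miR-133a are active in heart and skeletal muscle, while miR-206 and miR-133b are best known from skeletal muscle, where their transcript also makes the long noncoding RNA Lincmd1.

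Mature sequences of 5 member arms from 3 of the loci were matched in RefSeq (GRCm38.p6). They are printed 5′ to 3′ with the seed, bases 2 to 8, in capitals, because the seed sets which messenger RNAs an arm can pair with and because the 5p arms of Mir1a-1 and Mir206 show how close the pairs are.
miR-1a-1-5p: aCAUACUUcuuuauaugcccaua
miR-206-5p: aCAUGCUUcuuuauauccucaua
miR-206-3p: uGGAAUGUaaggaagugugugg
miR-133b-5p: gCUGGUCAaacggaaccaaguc
miR-133b-3p: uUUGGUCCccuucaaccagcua
The arms miR-1a-1-5p and miR-206-5p have 23 bases each and differ at 3 of them, A5G, G17C and C19U, counted from 1 at the 5′ end. A5G lies in the seed, so these 5p arms have different seeds. The other member arms, miR-1a-3p, both arms of miR-133a and the 5p arm of Mir1a-2, are named only. The 3p arms of miR-1a and miR-206 were therefore not compared, and the seeds of the 5p arms say nothing about theirs.

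The hairpins of the chromosome 1 pair show both arms in capitals, and give the whole precursors of the members at the low end of the range.
Mir206: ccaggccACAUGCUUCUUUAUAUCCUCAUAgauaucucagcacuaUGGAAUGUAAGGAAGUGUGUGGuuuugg
Mir133b: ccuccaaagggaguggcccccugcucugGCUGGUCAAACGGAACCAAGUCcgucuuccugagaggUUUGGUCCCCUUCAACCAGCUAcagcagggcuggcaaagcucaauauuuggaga

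The host transcripts with the most and the fewest member reads were Mir1a-1hg, of Mir1a-1 and Mir133a-2, and Lincmd1, of Mir206 and Mir133b. Their start regions are shown because both hairpins of a pair lie within the annotated host transcript. Each window takes 250 bases before the annotated start and 50 from it on, from RefSeq (GRCm38.p6). Whether both hairpins are transcribed from that start was not tested. E-boxes (CANNTG, the sites bound by MyoD and related factors) are in capitals. The first window lies at chr2:180385354-180385653 and the second at chr1:20669632-20669931, both on the plus strand.
Mir1a-1hg: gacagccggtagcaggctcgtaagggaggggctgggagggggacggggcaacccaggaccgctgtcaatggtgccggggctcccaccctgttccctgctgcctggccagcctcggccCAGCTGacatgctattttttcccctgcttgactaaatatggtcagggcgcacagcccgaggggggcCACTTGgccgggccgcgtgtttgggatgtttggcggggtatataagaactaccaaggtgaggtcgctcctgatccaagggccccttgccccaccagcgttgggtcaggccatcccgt
Lincmd1: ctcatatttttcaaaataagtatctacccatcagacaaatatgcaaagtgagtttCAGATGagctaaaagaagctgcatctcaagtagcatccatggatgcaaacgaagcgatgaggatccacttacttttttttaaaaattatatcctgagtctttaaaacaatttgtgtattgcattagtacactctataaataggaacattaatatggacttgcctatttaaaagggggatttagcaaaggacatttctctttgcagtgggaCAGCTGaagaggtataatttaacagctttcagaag
The Mir1a-1hg window has a GC content of 64.3% and the Lincmd1 window 34.3%. Each holds 2 E-boxes, at -133 and -67 in Mir1a-1hg and at -195 and 16 in Lincmd1, where 1 is the annotated start. E-boxes were found on either strand in 72.3% of 32851 windows of 300 bases, so their presence is common.

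Other motifs were searched on both strands. The MEF2 site was found once in the Lincmd1 window, at -63, overlapping a TATAAA at -62, and these motifs occur in 3.19% and 13.6% of all windows. No match to the MEF2 site, to the CArG box bound by SRF (in 1.63% of windows), to AGATAA, the letters bound by GATA factors (11.2%), or to TATAAA was found in the Mir1a-1hg window. The Lincmd1 window held no CArG box or AGATAA. A match is a description of the letters and not a binding site.

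The members together held 9.72% ± 0.438 (SD, n = 6) of all counts, from 9.28% in heart 5 to 10.4% in heart 4. Almost all of this was the 3p arm of miR-133a, with 91.5% ± 1.03 of the member reads. miR-1a-3p held 7.81% ± 1.09 and the other members together 0.662% ± 0.0722. The order miR-133a-3p, miR-1a-3p, miR-133b-3p, miR-133a-5p, miR-1a-5p, miR-206-3p was the same in all 6 hearts.

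miR-133a-3p, the most abundant member, stood at 87670, 90744, 86545, 96510, 83533 and 89019 CPM in hearts 1 to 6, ranking 3 or 4 of all mature names. Heart 4 was highest and heart 5 lowest, and the mean was 89004 ± 4407 CPM. miR-1a-3p, which comes from the same 2 loci, stood at 6888, 8152, 6139, 7207, 8709 and 8426 CPM, with ranks from 19 to 22 and a mean of 7587 ± 1001 CPM. Hearts 2, 5 and 6 were the high ones and heart 3 the lowest, so the order of the hearts was not that of miR-133a-3p. With the 2 entries antisense to Mir1b left out, the mean of miR-1a-3p was 5582 CPM.

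miR-133b-3p and miR-133a-5p lay far below and close to each other. miR-133b-3p had 467, 358, 362, 351, 290 and 286 CPM, highest in heart 1 and lowest in hearts 5 and 6 (mean 352 ± 65.5 CPM, ranks 74 to 85). miR-133a-5p, the minor arm of miR-133a, had 261, 278, 301, 334, 256 and 283 CPM (mean 286 ± 28.7 CPM, ranks 82 to 90). The ranges of these neighbours overlap, although miR-133b-3p was the higher in each heart, and their difference was not tested. miR-1a-5p stood at 3.03 to 7.82 CPM with a median of 5.13 CPM, from 152 reads in all, with hearts 4 and 1 highest and heart 6 lowest.

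miR-206-3p, the skeletal muscle member, had a single read, in heart 4, and 0 in the other 5 hearts. Pooled over the 6 libraries this is 0.0339 CPM (exact Poisson 95% interval 0.000857 to 0.189). A count of 0 over all libraries would have allowed up to 0.102 CPM, so miR-206-3p was at the limit of detection at this depth. The plot of levels by heart shows the gaps between members beside the much smaller spread between hearts.

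**Figure D1:**
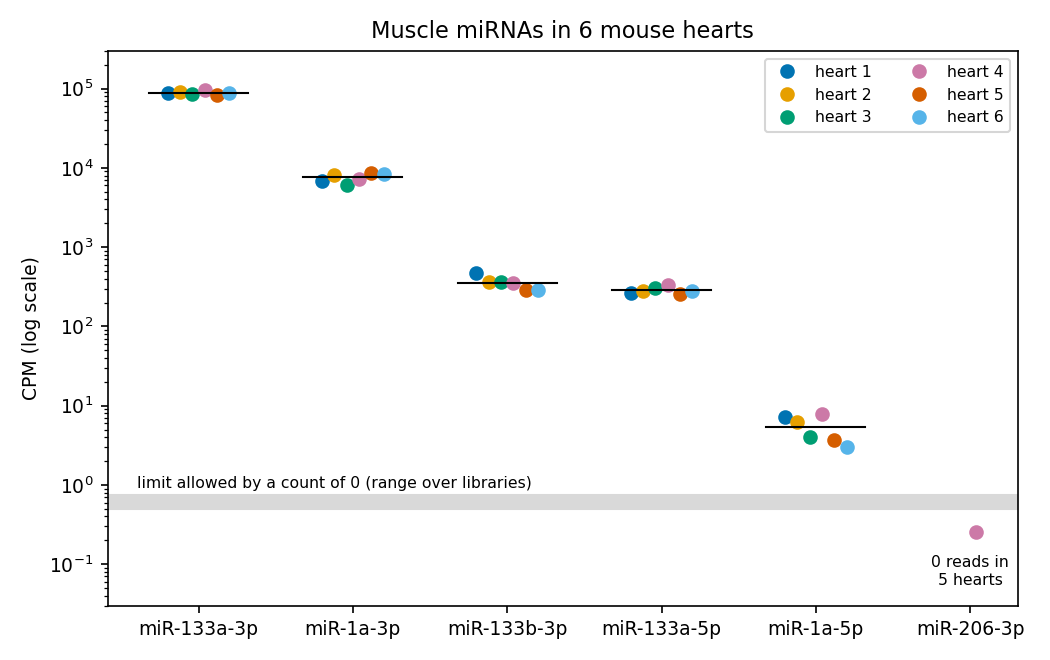
CPM of each member miRNA on a log axis, 1 point per heart, with a line at the mean of the 6 hearts, and a grey band for the limit that a count of 0 allows in a library. miR-133a-3p (83533 to 96510 CPM) and miR-1a-3p (6139 to 8709 CPM) do not overlap each other or any other member, while miR-133b-3p and miR-133a-5p overlap.

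Ratios within each library were tested for 8 pairs of members or loci with an exact two-sided sign-flip permutation test on log2 ratios. Each was in the same direction in 6 of 6 hearts, and each exact p was 0.03125, also after Benjamini-Hochberg adjustment over the 8 pairs. That is the smallest p that 6 hearts can give, and it does not grade the size of the ratios. The pairs reuse the same counts, so their p-values are not independent. miR-133a-3p exceeded miR-1a-3p 11.8-fold (log2 ratio 3.56 ± 0.22, SD), from 9.59-fold in heart 5 to 14.1-fold in heart 3. It exceeded miR-133b-3p 256-fold (log2 ratio 7.998 ± 0.26), from 188-fold in heart 1 to 311-fold in heart 6. The first of these ratios was lowest and the second above its mean in heart 5, so the members did not keep fixed proportions.

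miR-1a-3p exceeded miR-133b-3p 21.7-fold (log2 ratio 4.44 ± 0.41), with hearts 5 and 6 near 30-fold (29.98 and 29.4) and heart 1 at 14.8-fold. Among the minor arms, miR-133a-5p exceeded miR-1a-5p 55.7-fold (log2 ratio 5.80 ± 0.53), from 36.6-fold in heart 1 to 93.2-fold in heart 6. The excess of miR-133a over miR-1a was thus found on both arms. Since adapters ligate better to some RNA ends than to others, these ratios count reads and not molecules. Ratios to miR-133b-3p also depend on how reads close to both it and miR-133a-3p were assigned, which was not tested.

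The 3 transcribed pairs differed in reads, most of all the pair on chromosome 1 from the others. On chromosome 2, Mir1a-1 (chr2:180389048-180389124) and Mir133a-2 (chr2:180398379-180398482) lie on the plus strand with 9254 bases between them, outside any GENCODE gene but inside the RefSeq long noncoding RNA Mir1a-1hg (chr2:180385604-180401802). On chromosome 18, Mir1a-2 (chr18:10785481-10785552) and Mir133a-1 (chr18:10782909-10782976) lie on the minus strand 2504 bases apart, in introns of the noncoding host Mir133a-1hg. They also lie in an intron of Mib1, a ubiquitin ligase gene of Notch signalling, on the strand opposite to it. On chromosome 1, Mir206 (chr1:20679010-20679082) and Mir133b (chr1:20682769-20682887) lie on the plus strand 3686 bases apart. Both overlap exons of the long noncoding RNA annotated as Gm28653 by GENCODE and Lincmd1 by RefSeq. These positions are on GRCm38.

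The chromosome 2 pair held 83.4% ± 0.672 of the member reads, at 81125 ± 3885 CPM with all arms summed, lowest in heart 5 at 77278 and highest in heart 4 at 87326. The chromosome 18 pair held 16.2% ± 0.614, at 15756 ± 790 CPM, from 14897 in heart 3 to 16732 in heart 4. The chromosome 1 pair, with entries for its 3p arms only, held 0.363% ± 0.0707, at 352 ± 65.5 CPM, nearly all of it miR-133b-3p. The ranges of the 3 loci do not overlap.

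Reads at chromosome 2 exceeded those at chromosome 18 by 5.15-fold (log2 ratio 2.36 ± 0.066), within the narrow range of 4.78-fold in heart 1 to 5.49-fold in heart 6. This ratio, and the share of member reads at each of these loci, depends on how reads that match both copies were divided. That division is not given in the sources used here, and its part in the ratio was not tested. Chromosome 18 exceeded chromosome 1 by 45.3-fold (log2 ratio 5.50 ± 0.22), and chromosome 2 exceeded chromosome 1 by 233-fold (log2 ratio 7.86 ± 0.27). The ratios to chromosome 1 were lowest in heart 1, the heart with the most miR-133b-3p, and highest in heart 6. They also depend on how reads close to both miR-133a-3p and miR-133b-3p were assigned, which is not given in the sources used here. The map of the loci sets the level of each 3p arm beside its place in the transcript.

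**Figure D2:**
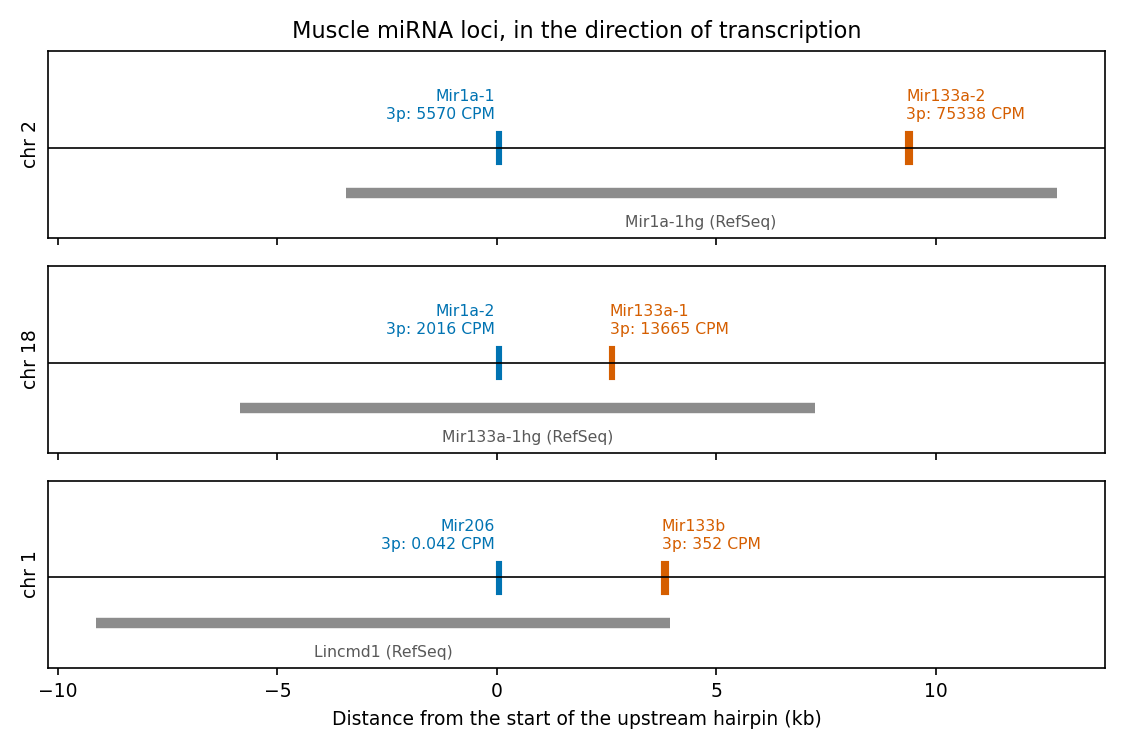
The 3 loci drawn to scale along the direction of transcription, in kb from the start of the upstream hairpin, with the RefSeq host transcript in grey and the mean CPM of the 3p arm over 6 hearts above each hairpin. The downstream hairpin, of the miR-133 family, has the higher 3p level at every locus, from 352 CPM for Mir133b to 75338 CPM for Mir133a-2, and Mir206 is at 0.042 CPM because the mean takes in 5 hearts with 0 reads.

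Within each transcript the downstream hairpin gave more reads of its 3p arm than the upstream one, but not in the same proportion. On chromosome 2 the reads of miR-133a-3p per read of miR-1a-3p ran from 11.2 in heart 5 to 16.2 in heart 3 (mean 13.7 ± 1.97). On chromosome 18 they ran from 5.34 in heart 5 to 8.40 in heart 1 (mean 6.93 ± 1.27). The ranges do not overlap, and heart 5 was the lowest at both loci. The log2 ratio was larger on chromosome 2 by 0.99 ± 0.13, from 0.76 in heart 1 to 1.11 in heart 6. Both ratios depend on how reads that match both copies were divided, which is not given in the sources used here.

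The copies of miR-1a and miR-133a were divided unevenly, with the larger part on chromosome 2 for every arm and in every heart. For miR-133a-3p the chromosome 2 share was 83.3, 84.5, 84.7, 84.8, 84.7 and 85.7% in hearts 1 to 6 (mean 84.6% ± 0.751, 2617276 reads). Hearts 2 to 5 lie within a narrow band, with heart 1 below and heart 6 above it. For miR-1a-3p the share was 74.8, 73.7, 73.7, 72.4, 72.5 and 73.6% (mean 73.5% ± 0.864, 227336 reads), highest in heart 1. The ranges of these arms do not overlap, although Mir1a-1 and Mir133a-2 share a transcript.

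For miR-133a-5p the chromosome 2 share was 76.1, 76.03, 75.8, 72.1, 74.5 and 71.99% (mean 74.4% ± 1.93, 8345 reads), with hearts 4 and 6 the low ones. For miR-1a-5p it ran from 74.2% in heart 2 to 94.1% in heart 6, with a median of 85.03% (152 reads, 128 of them on chromosome 2). The Wilson 95% interval of heart 2, from 56.8 to 86.3%, overlaps that of heart 6, from 73.02 to 98.95%, so these reads are too few to separate the hearts. The shares of both minor arms overlap.

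All 4 two-copy names among the members passed the test of unequal copies, against 78.6% of the 42 mature names listed at exactly 2 loci (edgeR quasi-likelihood test blocked by library, Benjamini-Hochberg adjusted p under 0.05 and at least 2-fold). With the copies taken as chromosome 2 over chromosome 18, the fitted difference was a log2 ratio of 2.46 for miR-133a-3p (adjusted p = 1.11e-15) and 1.54 for miR-133a-5p (adjusted p = 5.99e-11). For the miR-1a arms the fit gave chromosome 18 over chromosome 2, at -1.47 for miR-1a-3p (adjusted p = 2.03e-14) and -2.38 for miR-1a-5p (adjusted p = 1.21e-05). Such a division is common among two-copy names, and the members lay within their range.

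The median larger copy of the 42 names held 79.6% of the reads, with a range from 53.4 to 99.3%. Of these names, 13 were more uneven than miR-133a-3p, 15 more than miR-1a-5p, 26 more than miR-133a-5p and 27 more than miR-1a-3p. The 5 most abundant two-copy names outside the members lay on either side of the median. miR-16-5p and miR-30c-5p had 92.9% and 90.1% on the larger copy and miR-26a-5p had 77.7%. miR-181a-5p, at 54.7%, and miR-486-5p, whose copies are both strands of a single site, at 53.8%, missed the 2-fold limit.

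Copies of one mature name can yield identical reads, and the counted windows differ in length between copies. Mir133a-1-5p spans 22 bases and Mir133a-2-5p 21, while Mir1a-1-3p spans 22 and Mir1a-2-3p 21. The part of these windows and of shared reads in the division was not tested. The plot of copy shares gives the interval of each heart.

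**Figure D3:**
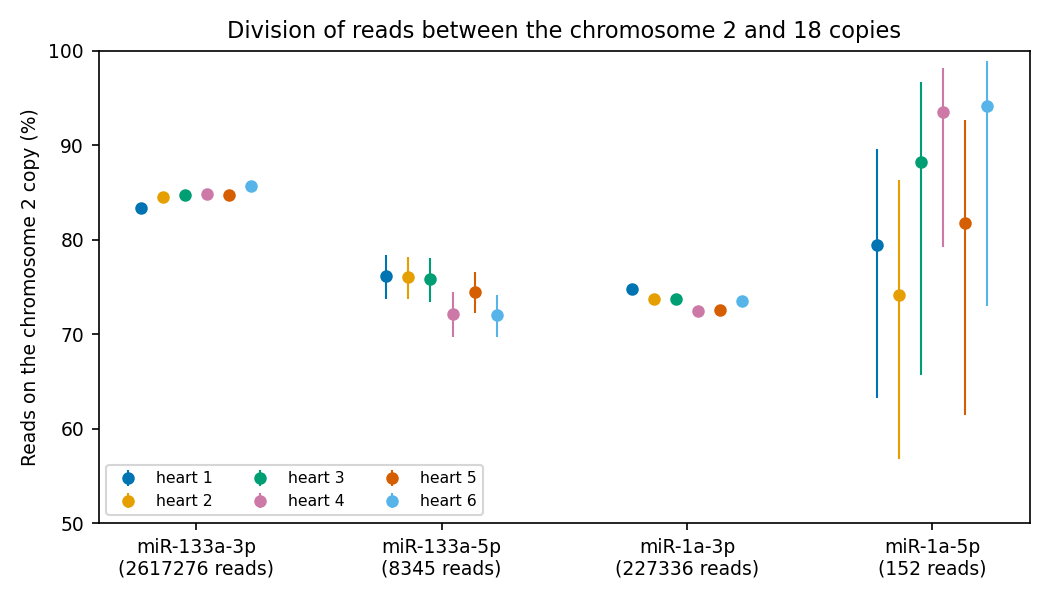
Percent of reads on the chromosome 2 copy for 4 arms, 1 point per heart with its Wilson 95% interval, on an axis from 50 to 100%. miR-133a-3p lies between 83.3 and 85.7%, above miR-1a-3p at 72.4 to 74.8%, and the wide bars of miR-1a-5p come from its 152 reads.

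miR-133a and miR-1a, the members with both arms analysed, gave nearly all their reads from the 3p arm, which is the arm that carries the known activity of miR-1 and miR-133. Of the reads of miR-133a, 0.297, 0.305, 0.347, 0.345, 0.305 and 0.317% were from the 5p arm in hearts 1 to 6 (mean 0.319% ± 0.0214, 8345 of 5p against 2617276 of 3p). Hearts 3 and 4 were the high ones. Of the reads of miR-1a, 0.104, 0.0765, 0.0655, 0.108, 0.0420 and 0.0360% were from the 5p arm (mean 0.0720% ± 0.0302). miR-1a had the lower 5p share in every heart, and the ranges do not overlap.

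Both were called for the 3p arm, against 40.8% of the 213 hairpins tested, and 89.2% were called for either arm (edgeR quasi-likelihood test blocked by library, adjusted p under 0.05 and at least 2-fold). The fitted log2 ratio of 3p to 5p reads was 8.29 ± 0.12 (SE) for miR-133a and 10.51 ± 0.15 for miR-1a, in the same direction in 6 of 6 hearts. These are ratios of 313-fold and 1461-fold. Their adjusted p was too small to be written other than as 0, and was 8.92e-25 for miR-133a and 3.61e-22 for miR-1a in the edgeR fit without the library block. That spread is largely pooled over hairpins.

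The median log2 ratio among the 87 hairpins called for the 3p arm was 5.43, or 43.1-fold. By fitted ratio miR-1a ranked 10 and miR-133a 21 among all hairpins for excess of the 3p arm. Both lie in the upper part of that range, but neither is at its end. The plot of arm ratios shows their place among hairpins of like abundance.

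**Figure D4:**
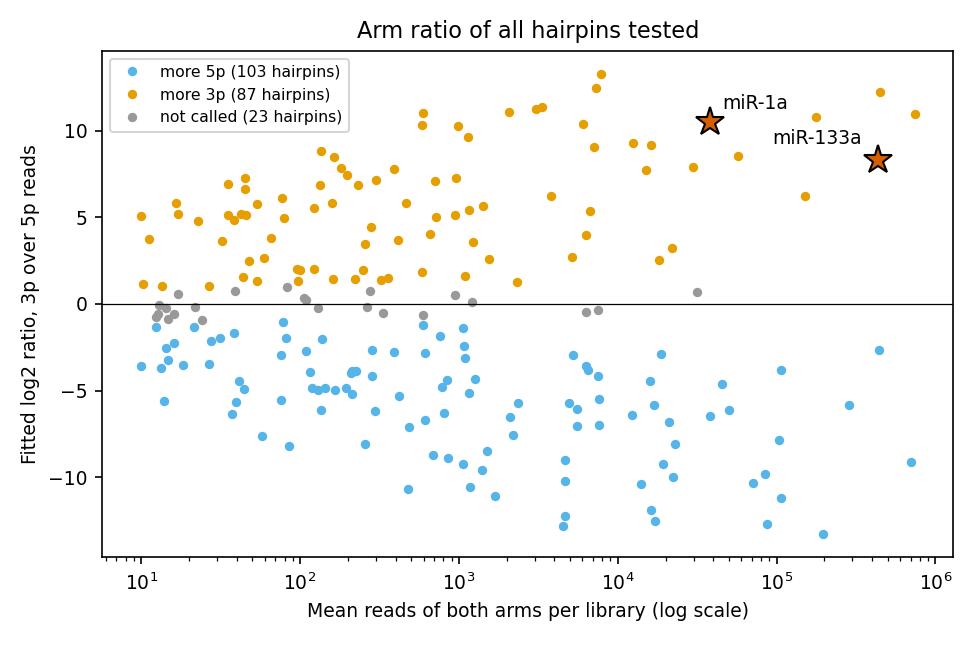
Fitted log2 ratio of 3p to 5p reads against the mean reads of both arms per library (log axis) for 213 hairpins, with colours for the 103 called 5p, the 87 called 3p and the 23 not called, and stars for miR-1a and miR-133a. The stars are at 10.51 and 8.29, above the median of 5.43 of the hairpins called 3p.

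The reads listed at the copies of miR-133a differed in the share from the minor arm. Mir133a-2 on chromosome 2 gave between 0.266 and 0.311% of its reads from the 5p arm (median 0.273%, mean 0.281% ± 0.0175). Mir133a-1 on chromosome 18 gave between 0.425% in heart 1 and 0.631% in heart 4 (median 0.529%, mean 0.534% ± 0.0810). The ranges do not overlap, and the ratio of the shares within a heart ran from 1.57 to 2.32. This comparison was chosen after the values were seen and has no test. These shares also depend on how reads that match both copies were divided, which is not given in the sources used here. The counted windows differ too, with 22 bases for Mir133a-1-5p and 21 for Mir133a-2-5p. The part of either in the difference was not tested. For miR-1a the 5p share was 0.0831% ± 0.0365 at Mir1a-1 and 0.0417% ± 0.0306 at Mir1a-2, the latter from 24 reads, and their ranges overlap.

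The hearts varied least in the most abundant member. The coefficient of variation (CV, SD over mean of the CPM) was 4.95% for miR-133a-3p, 10.05% for miR-133a-5p, 13.2% for miR-1a-3p, 18.6% for miR-133b-3p and 37.6% for miR-1a-5p. All 5 members that averaged at least 10 reads varied beyond counting noise, against 72.0% of the 346 mature names tested (chi-square test of the 6 counts, adjusted p under 0.05). All 95 names that averaged at least 1000 reads did so, so this call says little about the members. Of those 95, 3 had a lower CV than miR-133a-3p, 44 than miR-133a-5p, 62 than miR-1a-3p and 78 than miR-133b-3p, with a median of 10.4%.

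Single hearts carried part of this spread. The CV of miR-133b-3p was 11.5% without heart 1, in which it was highest. Without heart 4, where both arms of miR-133a were highest, the CV was 3.10% for miR-133a-3p and 6.59% for miR-133a-5p. With 1 library per heart, the spread of the hearts and of library preparation cannot be told apart. A lower level can be fewer muscle cells or less of the miRNA per cell, which bulk tissue cannot tell apart either. CPM is a share of the library, so it also moves with the levels of other miRNAs. After TMM scaling, an adjustment for library composition, miR-133a-3p was highest in heart 6 and not in heart 4. With this scaling the CV was 6.18% for miR-133a-3p, 8.96% for miR-133a-5p, 15.4% for miR-1a-3p, 18.7% for miR-133b-3p and 36.0% for miR-1a-5p. The order of the members was kept. miR-30a-5p had a higher CV than miR-133a-3p by CPM (5.71%) but a lower one after scaling (5.87%), so places among all names depend on the scaling.

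No relation between cotranscribed members passed adjustment, and their r depended on single hearts. Over 6 hearts, after TMM scaling (edgeR's adjustment for library composition), miR-133a-3p and miR-1a-3p had r = 0.31 (exact permutation p = 0.539, adjusted over 8 relations 0.838) and rho = 0.60 (exact permutation p = 0.242). With hearts 5 and 6 left out, which lay farthest from its median in miR-133a-3p, r was 0.93 over the 4 that remain. Without heart 5 alone r was 0.95 (exact permutation p = 0.025, adjusted 0.2), and without heart 6 alone it was 0.042. Heart 5 had the lowest miR-133a-3p after scaling and an above-average miR-1a-3p. With library totals in place of TMM the r was -0.13, so its sign depends on the scaling.

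miR-133b-3p showed no relation to either of the others that passed the test. Its r was 0.20 with miR-133a-3p (exact permutation p = 0.713, adjusted 0.838; rho = 0.14, exact permutation p = 0.803), and -0.20 without hearts 5 and 6. With miR-1a-3p it was -0.46 (exact permutation p = 0.376, adjusted 0.753; rho = -0.26, exact permutation p = 0.658), and -0.45 without hearts 3 and 6. miR-133b-3p was highest in heart 1 and lowest in heart 5 after scaling. For the arms of miR-133a, r was 0.69 (exact permutation p = 0.128, adjusted 0.341; rho = 0.60, exact permutation p = 0.242), and 0.16 without hearts 5 and 6 or 0.27 without heart 5 alone.

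The other cardiac miRNAs were taken from a list of striated muscle miRNAs. miR-499-5p lies within the myosin gene Myh7b and stood at 1144, 1200, 1063, 1250, 1007 and 1094 CPM (mean 1126 ± 89.8 CPM). miR-208a-3p lies within Myh6, which encodes alpha myosin, and stood at 1171, 1608, 1189, 1474, 879 and 1043 CPM (mean 1227 ± 270 CPM). Both were lowest in heart 5, as was miR-133a-3p. miR-208b-3p, of Myh7, which encodes beta myosin, went the other way, at 133, 71.3, 107, 142, 189 and 65.3 CPM, highest in heart 5 (mean 118 ± 46.7 CPM). miR-499-5p and miR-208a-3p each stood below miR-1a-3p and above miR-133b-3p in all hearts.

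miR-133a-3p and miR-499-5p had r = 0.93 (exact permutation p = 0.00556, adjusted 0.0444) and rho = 0.83 (exact permutation p = 0.0583), and r was 0.97 without hearts 5 and 6. This was the only 1 of 8 relations to pass adjustment, and it did not pass with library totals (r = 0.93, adjusted exact permutation p = 0.0778). With single hearts left out its r was 0.84 to 0.99. With miR-208a-3p the r of miR-133a-3p was 0.75 (exact permutation p = 0.0806, adjusted 0.322; rho = 0.37, exact permutation p = 0.497), and 0.97 without hearts 5 and 6, but 0.41 without heart 5 alone and 0.99 without heart 6 alone. For miR-1a-3p, r was 0.17 with miR-499-5p (exact permutation p = 0.733, adjusted 0.838; rho = 0.31, exact permutation p = 0.564), and -0.24 without hearts 3 and 6. With miR-208a-3p it was -0.11 (exact permutation p = 0.847, adjusted 0.847; rho = -0.26, exact permutation p = 0.658), and -0.11 without hearts 3 and 6. The difference between these relations was not tested. The plot of deviations shows heart 5 as the low one for miR-133a-3p, miR-499-5p and miR-208a-3p, and does not include miR-208b-3p, which was highest there.

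**Figure D5:**
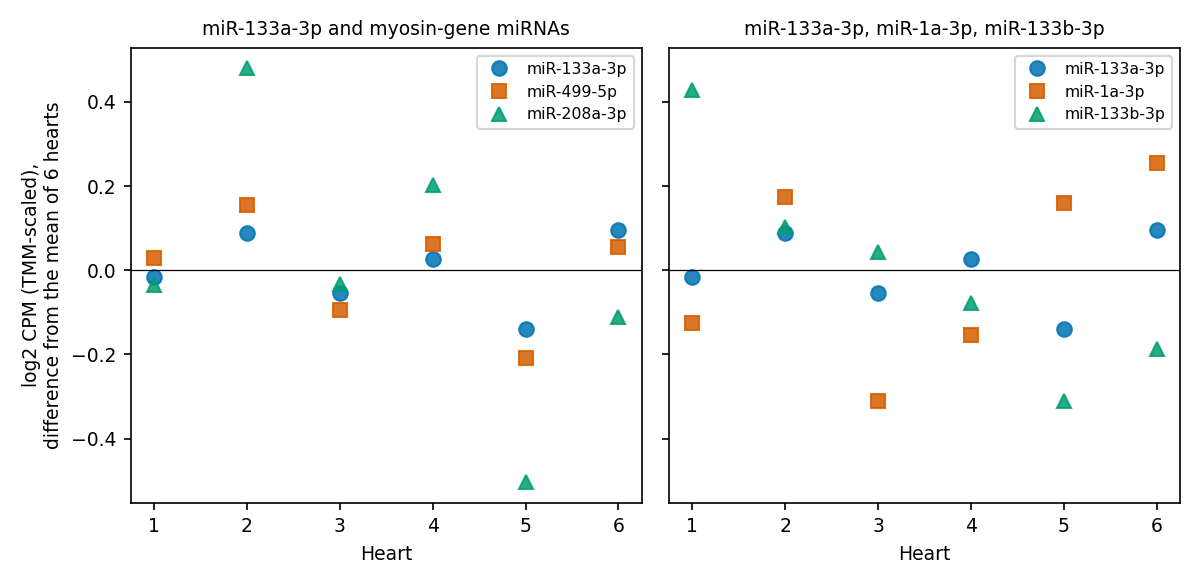
Difference of log2 CPM (TMM-scaled) from the mean of 6 hearts, 1 point per heart and miRNA, for miR-133a-3p with miR-499-5p and miR-208a-3p (left) and for miR-133a-3p, miR-1a-3p and miR-133b-3p (right). In heart 5 miR-133a-3p is at -0.14, miR-499-5p at -0.21 and miR-208a-3p at -0.50, while miR-1a-3p is at 0.16 and miR-133b-3p at -0.31.

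The miRNAs whose pattern over the 6 hearts was most like that of miR-133a-3p were sought among 206 others with a mean of at least 100 reads, by Pearson r and as a description. They were miR-322-5p (r = 0.97), miR-499-5p (0.93), miR-335-5p (0.90), miR-155-5p (0.89) and miR-215-5p (0.88). Without heart 5 these values were 0.94, 0.84, 0.94, 0.73 and 0.72. Of the members, miR-133a-5p was at place 23, miR-1a-3p at 78 and miR-133b-3p at 93. Most like miR-1a-3p were miR-203-3p (0.88), miR-16-5p (0.88), miR-195-5p (0.88), let-7b-5p (0.87) and miR-497-5p (0.85), with miR-133a-3p at place 54. Without heart 5 the r of these miRNAs with miR-1a-3p was 0.85 to 0.93. All points share the 6 libraries and their scaling.

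Among the rest of the muscle list, miR-22-3p (150635 ± 11140 CPM) and miR-486-5p (141974 ± 22861 CPM), which are also made outside muscle, stood above miR-133a-3p on average. miR-30a-5p (57611 ± 3289 CPM) and miR-378a-3p (30710 ± 3604 CPM) stood between miR-133a-3p and miR-1a-3p. miR-208b-3p stood below miR-133b-3p. The minor arms miR-208a-5p (76.6 CPM) and miR-499-3p (8.81 CPM) lay above miR-1a-5p, and miR-208b-5p had 2 reads.

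The tissue label was checked against marker miRNAs, given as percent of all counts over the 6 hearts. The 3 cardiomyocyte markers, the cardiac myosin-gene miRNAs, were all detected at 0.207 to 0.288% together. Their sum was lowest in heart 5, although miR-208b-3p alone was highest there. The skeletal muscle marker miR-206-3p was at 0 in 5 libraries. Markers of other cells were present at 8.43 to 9.76% for endothelium, 6.56 to 11.3% for smooth muscle and 1.81 to 2.51% for fibroblasts and mesenchyme. Most of the endothelial sum was miR-126-5p (2289204 reads, then 356785 of miR-126-3p). Most of the smooth muscle sum was miR-143-3p (2688484 reads, then 22172 of miR-145-5p). Most of the fibroblast and mesenchyme sum was miR-10b-5p (521367 reads, then 94339 of miR-199a-3p). These sums are therefore levels of a few miRNAs and not shares of cells. Those of erythroid cells held 0.218 to 0.569% and those of leukocytes 0.295 to 0.377%. Heart 5, with the lowest miR-133a-3p by CPM, had the highest smooth muscle marker share, and heart 4, with the highest miR-133a-3p by CPM, the lowest. After TMM scaling miR-133a-3p was highest in heart 6, which had the next highest smooth muscle marker share, at 10.3%. The part of these shares in the differences between hearts was not tested.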

How the data were processed

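Per the file headers, the deposited files give whole-number read counts per miRNA arm and locus, not normalized by the authors. Per the labels' protocols, libraries were made from Trizol-extracted RNA with adapter ligation, PCR and size selection. Per the submitters' processing notes the build is GRCm38, with edgeR and DESeq listed but no step tied to them. The aligner and the handling of reads matching more than 1 locus were not given in the sources used here. Antisense entries at a hairpin annotated on the opposite strand (GENCODE M21) were assigned to it, and the others were left out. Loci of one mature name were summed. Arms and copies were compared with edgeR 4.0.16 (R 4.3.3; DESeq2 1.42.0 as an alternative), for hairpins or names that averaged at least 10 reads. Ratios used a pseudocount of 0.5, and co-variation log2 CPM with a prior count of 1. The arm, copy and spread tests were tried on simulated counts, with changes smaller than the arm ratios of miR-133a and miR-1a. Named miRNAs are the members, a striated muscle list, the 5 most like miR-133a-3p and miR-1a-3p, the 5 most abundant other names at 2 loci, and hairpins opposite a member. Members and lists were chosen with earlier results of these data known. Alternatives in scaling, filters, tools and libraries are in the closing section.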

Additional observations from a re-analysis of the deposited data

How the results depend on the processing

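With 5 hearts the smallest exact sign-flip p is 0.0625, so none of the 8 pair ratios could pass with a heart left out, while their log2 values stayed at 3.51 to 3.62 (miR-133a-3p to miR-1a-3p), 7.94 to 8.09 (miR-133a-3p to miR-133b-3p), 4.34 to 4.55 (miR-1a-3p to miR-133b-3p), 5.66 to 5.93 (miR-133a-5p to miR-1a-5p), 2.35 to 2.39 (chromosome 2 to 18), 5.46 to 5.57 (chromosome 18 to 1), 7.80 to 7.96 (chromosome 2 to 1) and 0.97 to 1.04 (chromosome 2 minus 18). With a heart left out, the r of miR-133a-3p with miR-1a-3p ran from 0.042 (without heart 6) to 0.95 (without heart 5), with miR-208a-3p from 0.41 (without heart 5) to 0.99 and with miR-133a-5p from 0.27 (without heart 5) to 0.83. That with miR-499-5p ran from 0.84 to 0.99 (adjusted exact p 0.0667 to 0.333, where 0.0667 is the smallest that 1 relation of 8 can give alone), that with miR-133b-3p from -0.48 to 0.48 (negative without heart 5), that of miR-1a-3p with miR-499-5p from -0.11 to 0.75 (-0.0752 without heart 2, -0.11 without heart 3) and with miR-208a-3p from -0.59 to 0.24 (positive without heart 5). On library totals the r of miR-133a-3p with miR-1a-3p was -0.13, of miR-1a-3p with miR-499-5p -0.16, and of miR-133a-3p with miR-499-5p 0.93 (adjusted exact p 0.0778). The cause was not tested.

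With sense entries only, an alternative chosen after seeing the data, miR-1a-3p stood at 5582 CPM and miR-133a-3p to miR-1a-3p at a log2 ratio of 4.01. The log2 ratio was then 3.99 for miR-1a-3p to miR-133b-3p and 6.03 for miR-133a-5p to miR-1a-5p. It was 2.56 for chromosome 2 to 18 and 5.30 for chromosome 18 to 1. The difference between chromosomes 2 and 18 in the log2 ratio of miR-133a-3p to miR-1a-3p could not be computed. Without the library as a replicate block the counts called were the same, 190 hairpins and 33 two-copy names, and DESeq2 called 190 and 33. With DESeq2 size factors 245 names varied beyond counting, and miR-133a-3p with miR-499-5p had r = 0.94 (adjusted exact p 0.0444). The samples form a single group, so no pairing across groups arises. The number of hairpins called was 187 to 191 with a heart left out, 141 at a mean of at least 100 reads and 219 with no filter, and the members stayed called in each. Depth limits miR-206-3p (1 read) and miR-1a-5p (152 reads).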

Other observations

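Reads on the strand opposite to the members were few. Mir1b is annotated opposite to Mir1a-2 on chromosome 18, and its own 3p arm had 0, 3, 0, 0, 1 and 3 reads in hearts 1 to 6, or 7 in all. At the same site 60458 reads of the 3p arm and 24 of the 5p arm of Mir1a-2 were listed as antisense to Mir1b. On chromosome 2 the strand opposite to the 5p arm of Mir1a-1 had 1 read, in heart 4. None of 31 sets of member values over the 6 hearts held a heart far enough from the others to be marked by Dixon's test.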
